A study of Mus musculus with 8 samples.

Results

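Mitochondrial ribosomal protein genes were followed in activated mouse CD8 T cells given formate. The members were all genes whose symbol is Mrpl or Mrps with a number and at most 1 further letter, and 78 of the 35072 genes in the table met that rule: 49 Mrpl symbols and 29 Mrps symbols. The rule used names only and no measured value entered it, but it was chosen with earlier results of these data known.

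The mitochondrial ribosome is built in the matrix from rRNAs made from mitochondrial DNA and from proteins that are encoded in the nucleus, made in the cytosol and imported. It translates the few mRNAs of the mitochondrial genome, which encode membrane subunits of the respiratory chain and of ATP synthase. T cells expand their mitochondria and this translation apparatus when they are activated. Symbols follow the proteins' history more than their place: Mrps18a and Mrps30 encode proteins found in the large subunit, and the Mrps36 product is a subunit of the 2-oxoglutarate dehydrogenase complex.

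Naive wildtype CD8 T cells from mouse spleen and lymph nodes were stimulated for 18 h through CD3 and CD28, a subunit complex of the antigen receptor and a costimulatory receptor, in the presence of interleukin-12, a cytokine that drives a cytotoxic programme. They then received PBS, the vehicle control, or 2 mM formate, a carrier of single carbon units, for 24 h. Each group had 4 libraries of polyadenylated RNA, and the comparison asked how formate changed the transcriptome. The library titles end in codes, 1, 7, 10 and 13 for the controls and 2, 8, 11 and 14 for formate, and the labels do not say whether libraries came from separate mice or cultures, so a p-value here reflects only how far these libraries scatter, and that scatter may be technical.

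Library totals ranged from 29361986 to 41393093 estimated counts. The largest axis of variation separated codes 1 to 8 from codes 10 to 14 and held 51.2% of the variance, and neighbouring codes deviated together, so a fit with each control and its neighbouring formate code as a block (the paired fit) is given beside the fit without pairing (the unpaired fit). T cell markers were summed over Cd3d, Cd3e, Cd3g, Cd2 and Cd5 and the CD8 genes Cd8a and Cd8b1. The sum lay between 1776 and 1918 CPM (counts scaled to a common library total) in controls and between 1767 and 1870 with formate. B cell markers summed to 15.6 to 27.6 CPM in controls and 17 to 31.1 with formate, CD4 markers to 12.8 to 20.5 and 12.8 to 22.0, and myeloid markers to 3.59 to 6.03 and 4.73 to 6.86. Of 7 B cell markers 1, Ms4a1, passed the paired test. NK markers stayed at 0.486 CPM or less and erythroid and platelet markers at 0.65 or less, with Pf4 and Hba-a1 at 0 in all libraries. The part of these cells in the results below was not tested.

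The upstream stretches are shown of 5 members that passed the paired test and of Mrpl12, the member with the highest mean CPM. The later values turn on these genes. The letters come from RefSeq promoter windows on GRCm38.p6, 5′ to 3′ on the gene's strand, trimmed to the bases outside annotated GENCODE M21 exons. Windows matched 69 of the 78 members. Capitals mark a match to 1 of 4 motifs searched on both strands: the ETS core CCGGAAG, the NRF1 motif (GCGC, any base, then TGCGC), the YY1 motif ATGGCGGC and a palindromic element (TCTCG followed by its reverse complement). For Mrpl1 the stretch lies between the first exons of alternative transcripts, and the other 5 stretches lie upstream of the gene.
Mrpl1, chr5:96209865-96210080, plus strand: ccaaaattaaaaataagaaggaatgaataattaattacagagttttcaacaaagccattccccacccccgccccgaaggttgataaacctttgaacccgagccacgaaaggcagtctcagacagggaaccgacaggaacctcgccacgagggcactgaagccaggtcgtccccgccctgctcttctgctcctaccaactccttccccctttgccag
Mrps17, chr5:129715247-129715496, plus strand: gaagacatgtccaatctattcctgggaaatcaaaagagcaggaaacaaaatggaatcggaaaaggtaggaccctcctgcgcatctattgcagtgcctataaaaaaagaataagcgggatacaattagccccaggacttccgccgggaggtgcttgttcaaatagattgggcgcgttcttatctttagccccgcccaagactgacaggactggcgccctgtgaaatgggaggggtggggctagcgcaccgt
Mrpl50, chr4:49521094-49521175, minus strand: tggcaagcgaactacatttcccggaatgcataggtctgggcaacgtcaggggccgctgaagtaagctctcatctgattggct
Mrpl57, chr14:57826186-57826233, plus strand: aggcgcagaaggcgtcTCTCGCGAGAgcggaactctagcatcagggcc
Mrps5, chr2:127587176-127587221, plus strand: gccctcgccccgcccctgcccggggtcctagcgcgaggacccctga
Mrpl12, chr11:120484387-120484612, plus strand: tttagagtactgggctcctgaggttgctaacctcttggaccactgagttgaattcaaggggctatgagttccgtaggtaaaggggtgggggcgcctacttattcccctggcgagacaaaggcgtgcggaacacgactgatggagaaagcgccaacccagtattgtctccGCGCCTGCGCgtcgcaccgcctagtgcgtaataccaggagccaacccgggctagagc

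Over the whole windows, 250 bases before to 50 after the start, the ETS core was found in 26 of 75 member windows (34.7%), against 8.86% of 32851 windows of all genes and 17.7% of 12213 windows of genes tested here. The NRF1 motif was in 13 (17.3%), against 4.6% and 9.92%, and the YY1 motif in 12 (16%), against 2.24% and 4.78%. The palindromic element was in 1 member window, that of Mrpl57 (1.33%, against 0.466% and 1.02%), which also held the ETS core and the NRF1 motif, neither of them wholly within the stretch shown. Windows of Mrpl50 and Mrps5 held the YY1 motif, and those of Mrpl1 and Mrps17 held none of the 4. These are letter matches and say nothing about binding.

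All 78 members were expressed and all passed the filter on low counts. The lowest count in any library was 198, for Mrpl23, so each member was read well above the 3 counts that serve as the floor of detection. Mean CPM over the 8 libraries ran from 7.71 for Mrpl23 to 225 for Mrpl12, with a median of 63.3. The members lay on 17 chromosomes, with 11 genes on chromosome 11 and 8 on chromosome 17.

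To compare genes with each other, CPM was divided by the median length of the gene's GENCODE M21 transcripts; the effective lengths of the quantification were not used here, so these levels are approximate. Mrpl20, whose bacterial homologue binds the large rRNA early in assembly, had the highest level of the large-subunit symbols, 252 CPM per kilobase. Mrpl33 followed with 173 and Mrpl12, part of the stalk that recruits translation factors, with 171. Mrpl33 and Mrpl12 did not differ beyond their spread over libraries, as the plot of levels per kilobase shows. At the other end stood Mrpl23 with 11.1 and Mrpl1 with 7.95; Mrpl1 transcripts range from 1550 to 3556 nt, so its place in the order depends on the transcript used.

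**Figure D1:**
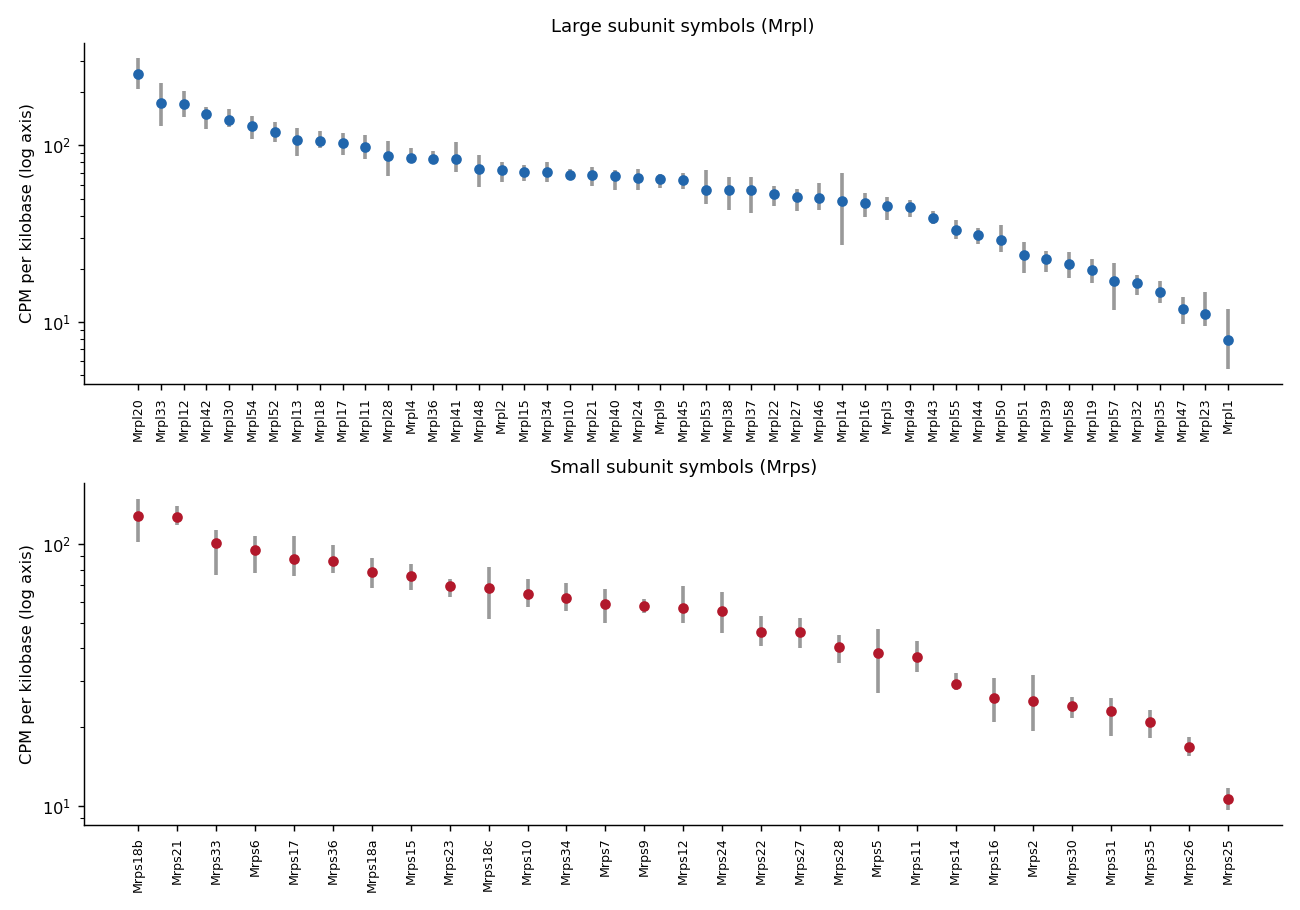
Level of each member in CPM per kilobase of transcript (log axis), Mrpl symbols above and Mrps symbols below, sorted by level; points are means over 8 libraries and grey lines run from the lowest to the highest library. Mrpl20 leads at 252 and Mrpl1 is last at 7.95, and neighbouring members mostly overlap.

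Among the Mrps symbols, Mrps18b (128), Mrps21 (127) and Mrps33 (101) had the highest levels per kilobase, and the first pair did not differ beyond their spread. Mrps26 (16.8) and Mrps25 (10.7) were lowest, both with long annotated transcripts, 4278 nt and 6073 nt. The median was 63.3 CPM per kilobase for Mrpl and 57.2 for Mrps, against 10.5 over all genes tested.

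Summed over genes, Mrpl transcripts made up 3239, 3726, 3344 and 3490 CPM in control codes 1, 7, 10 and 13, and 3354, 3667, 3302 and 3781 CPM in formate codes 2, 8, 11 and 14. The ranges overlapped almost wholly, and the means were 3450 ± 211 (SD, n = 4) and 3526 ± 235. The Mrps sum was 1770, 1981, 1735 and 1840 CPM in the controls and 1792, 1883, 1701 and 1940 with formate, with means of 1832 ± 109 and 1829 ± 105. In both sums codes 7 and 14 were highest and codes 1, 10 and 11 low, whichever the group. Members together summed to 5282 ± 316 CPM in controls and 5355 ± 336 CPM with formate. In bulk RNA, a change in the number of cells of a type and a change in RNA per cell cannot be told apart.

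**Figure D2:**
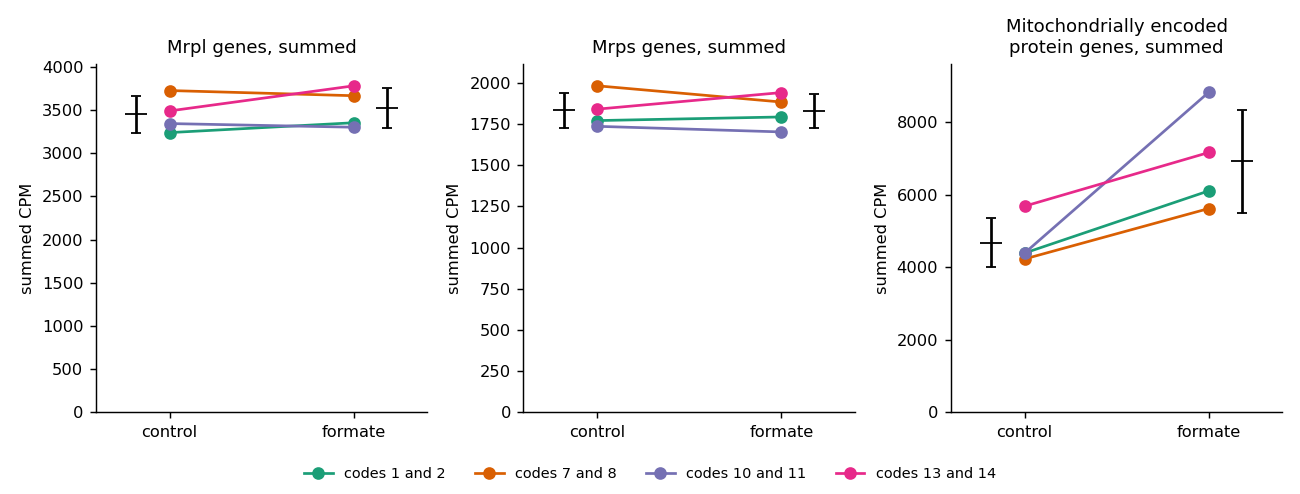
Summed CPM of the Mrpl genes, the Mrps genes and the 13 mitochondrially encoded protein genes in each library; lines join neighbouring title codes and black marks are means ± SD of 4 libraries. The Mrpl and Mrps sums overlap between groups, while each line runs up in the third panel, where the means are 4673 and 6929 CPM.

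The family as a whole was close to its control level with formate. Without pairing, edgeR's quasi-likelihood test called 0 of 78 members at a Benjamini-Hochberg adjusted p under 0.05, beside 1 of 13299 genes (0.00752%); 1 member, Mrpl1, had an unadjusted p under 0.05, 0.0217, and DESeq2 called 0 members, beside 19 genes (0.143%). The median log2 change, formate minus control, was 0.02 over Mrpl and 0.01 over Mrps, against -0.01 over all genes tested. The 95% interval of the change lay within 1.5-fold in both directions for 75 of 78 members; the exceptions were Mrpl1, Mrpl14 and Mrps5. No member had group ranges apart, that is, all 4 libraries of one group above all 4 of the other, where 571 genes (4.29%) did.

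With the code pairs as a block, 7 members were called, 5 higher and 2 lower with formate, or 8.97% of the family beside 12.9% of all genes tested (1711: 711 higher, 5.35%, and 1000 lower, 7.52%). Among the 8019 genes within the members' range of mean CPM the share was 16.3%. Higher were Mrpl1, Mrpl48, Mrpl50, Mrpl57 and Mrps17, and lower were Mrpl38 and Mrps5. In this fit the share called was thus no higher than the background. Scaling moved the split and the share. With library size alone as the scale 13 of 78 members were called, 12 higher and 1 lower. Over all genes that scale gave 1587 of 13299, 1048 higher and 539 lower, so the members' share was then above the background. Correcting for GC content gave 3 members higher and 3 lower, and 392 genes higher and 1344 lower (13.1% in all). DESeq2 with the block called 4 members, Mrpl1, Mrpl38, Mrps17 and Mrps5, beside 11.6% of genes.

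The median change in the paired fit was 0.02 for Mrpl (from -0.15 to 0.52) and 0.01 for Mrps (from -0.26 to 0.18), against -0.003 over all genes; the Mrps median turned negative in several fits, to -0.02 with GC offsets in the paired fit, -0.03 without codes 13 and 14 in the paired fit, -0.03 within codes 1 to 8 and -0.04 without formate code 14 in the unpaired fit. Members clustered near 0: 4 of 78 (5.13%) had a log2 change beyond 0.2 in size, against 27.7% of all genes tested. The middle range between the quartiles ran from -0.05 to 0.11 for Mrpl and from -0.04 to 0.06 for Mrps, against -0.11 to 0.13 over all genes. Neither comparison was matched for level, and the median of mean CPM was 63.3 for members and 22.4 over all genes tested. For 77 of 78 members the paired 95% interval lay within 1.5-fold, all but Mrpl1, and for 65 within 1.2-fold. The 71 members that did not pass had changes between -0.13 and 0.23.

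**Figure D3:**
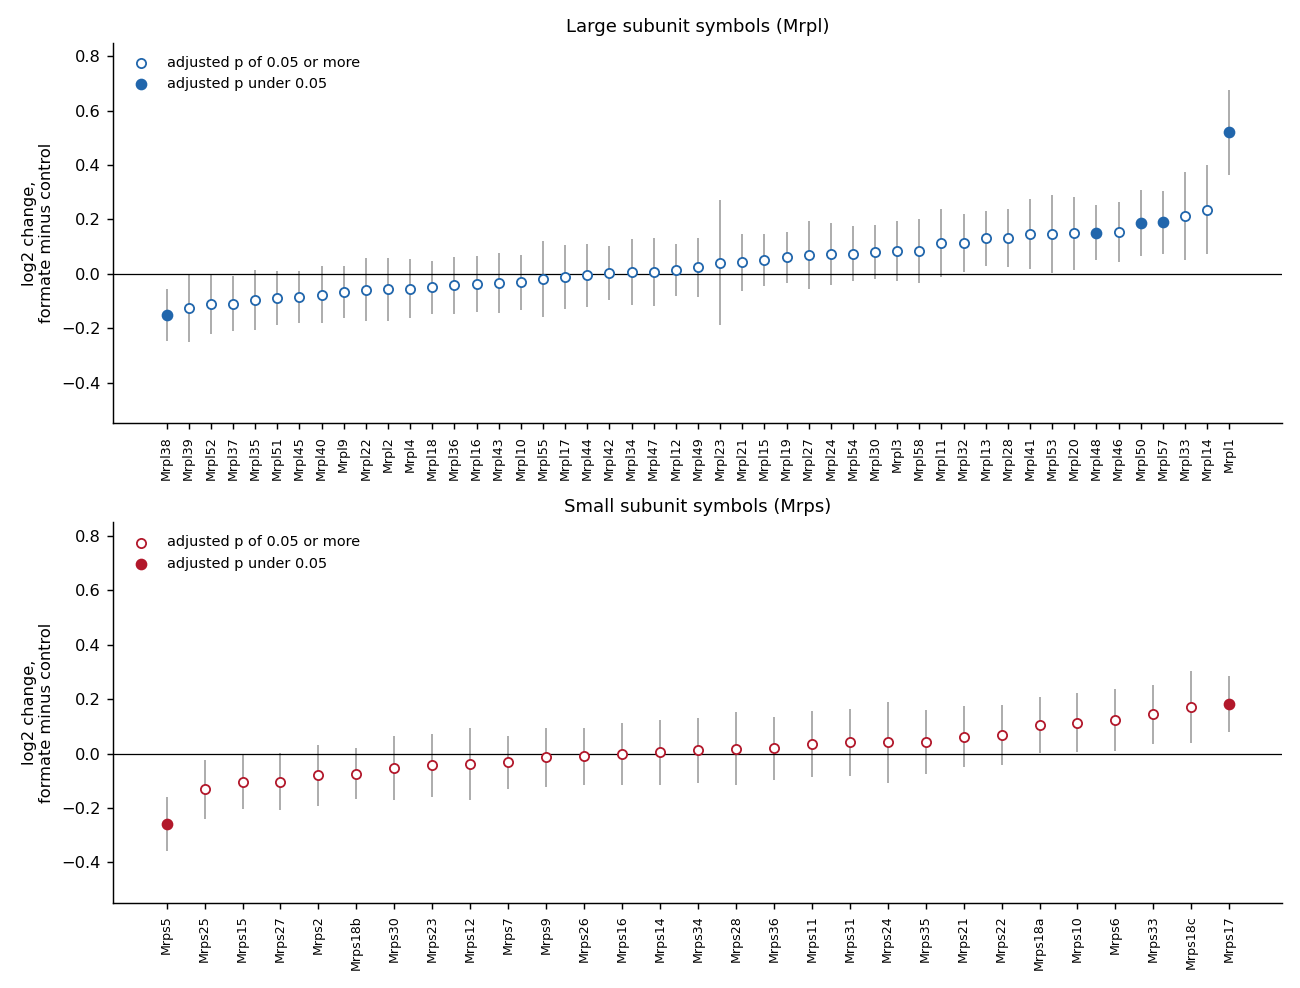
Log2 change, formate minus control, of each member in the paired fit with its 95% interval, Mrpl symbols above and Mrps symbols below, sorted by change; filled points have an adjusted p under 0.05. Mrpl1 stands highest at 0.52 and Mrps5 lowest at -0.26, with most members within 0.2 of 0.

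**Figure D4:**
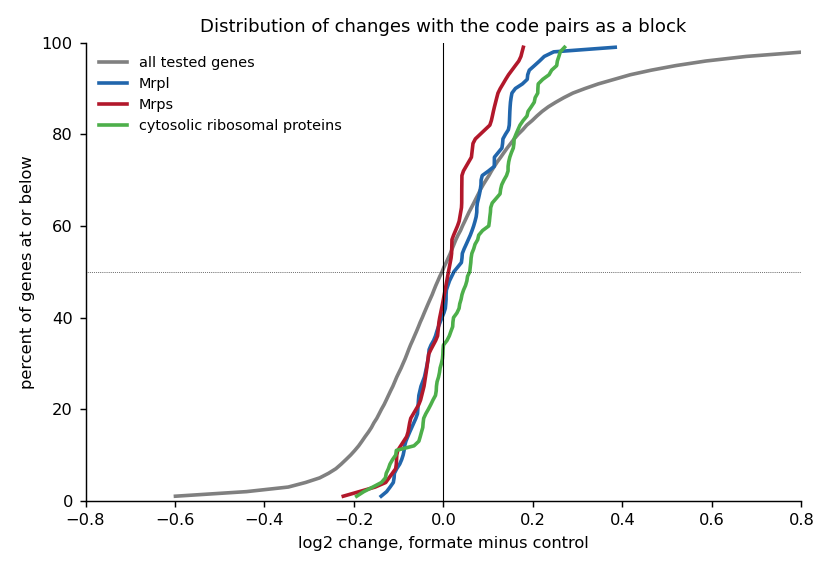
Percent of genes at or below a given log2 change (formate minus control, paired fit) for all tested genes, Mrpl, Mrps and the 83 cytosolic ribosomal protein genes; the axis stops at 0.8 in both directions and cuts the tails of all genes. The Mrpl and Mrps curves are steeper than that of all genes and cross 50% near 0.

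The family's median differed between code pairs more than between groups. From codes 1 to 2 the median Mrpl log2 difference was 0.05 and 34 of 49 genes were higher with formate; from 7 to 8 it was -0.03 with 20 higher, from 10 to 11 it was -0.01 with 24 higher, and from 13 to 14 it was 0.11 with 34 higher. Mrps gave 0.01, -0.05, -0.01 and 0.13, with 19, 9, 12 and 22 of 29 higher. Both subunits were thus lower or level in the pairs of codes 7 and 10 and higher in that of code 13. Of the 78 members 16 were higher in 4 of 4 pairs and 12 lower in 4 of 4, together 35.9%, beside 35.5% of all genes tested.

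Mrpl1 had the largest change of the family. It encodes the L1 protein of the large subunit, at the stalk past which spent tRNA leaves the ribosome. Its level was 18.9, 22.7, 29.7 and 18.6 CPM in control codes 1, 7, 10 and 13, and 26.4, 28.8, 40.5 and 32.6 CPM in formate codes 2, 8, 11 and 14. Control code 10 lay above formate codes 2 and 8, so the groups overlapped, but each formate library exceeded its neighbour. Means were 22.5 ± 5.14 and 32.1 ± 6.13 CPM (SD, n = 4). Mrpl1 (chr5:96209493-96266727) was 0.52 higher on the log2 scale in the paired fit (SE 0.074, edgeR adjusted p = 0.00167), and 0.51 higher without pairing (95% interval 0.09 to 0.93, adjusted p = 0.998). Correcting for GC content brought the paired change to 0.39 (adjusted p = 0.0059), and within the library sets it was 0.41 in codes 1 to 8 and 0.61 in codes 10 to 14.

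Mrps5 was the member that fell most. It encodes uS5m, a small-subunit protein near the mRNA entry. Its level was 116, 112, 79.7 and 101 CPM in control codes 1, 7, 10 and 13, and 98.2, 99.7, 66.4 and 78.2 CPM in formate codes 2, 8, 11 and 14. All formate libraries lay below their neighbours, while control code 10 lay below formate codes 2 and 8. The mean went from 102 ± 16.3 to 85.6 ± 16.1 CPM, a paired log2 change of -0.26 (SE 0.047, edgeR adjusted p = 0.00446), against -0.25 (SE 0.16, adjusted p = 0.998) without pairing. Mrps5 spans chr2:127587222-127606829, and its change was -0.21 within codes 1 to 8 and -0.30 within codes 10 to 14. Mrpl1 and Mrps5 passed the paired test whichever code pair was left out, and no other member did. Without codes 13 and 14 they were the 2 members called, beside 3.82% of genes.

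Mrps17 encodes uS17m, a small-subunit protein with a bacterial homologue. It stood at 64.2, 73.0, 69.3 and 74.1 CPM in control codes 1, 7, 10 and 13, and at 71.0, 79.1, 77.4 and 91.4 CPM in formate codes 2, 8, 11 and 14. The formate library of code 14 was highest and that of code 2 lay among the controls. The paired log2 change was 0.18 (SE 0.049, edgeR adjusted p = 0.0247; chr5:129715497-129722556), and the adjusted p was 0.13 without codes 13 and 14, 0.0951 without 1 and 2 and 0.057 without 7 and 8.

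Mrpl57 and Mrpl50 encode large-subunit proteins with no bacterial counterpart. Mrpl57 was at 33.7, 45.5, 52.0 and 51.8 CPM in the controls, in the same order of codes, and at 40.9, 48.4, 56.5 and 62.2 CPM with formate. Its spread followed the library sets, as all libraries of codes 10 to 14 lay above all of codes 1 to 8. Mrpl57 (chr14:57826234-57829296) was 0.19 higher in the paired fit (SE 0.054, edgeR adjusted p = 0.0327). Mrpl50 was at 56.6, 65.3, 52.7 and 56.3 CPM in controls and at 61.2, 69.4, 57.4 and 75.1 CPM with formate. Code 14 was highest, and the other formate libraries lay among the controls or just above them. For Mrpl50 (chr4:49512596-49521093) the paired change was 0.19 (SE 0.058, edgeR adjusted p = 0.0448). Both calls were lost when GC content was corrected for: the changes then were 0.09 for Mrpl57 (adjusted p = 0.322) and 0.08 for Mrpl50 (adjusted p = 0.394). Without codes 13 and 14 the adjusted p was 0.14 for Mrpl57 and 0.253 for Mrpl50, whose change was then 0.11.

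Mrpl48 and Mrpl38 belong to the central protuberance, the crown of the large subunit that faces the small one, and they moved in opposite directions. Mrpl48 was at 50.4, 57.9, 64.8 and 67.0 CPM in controls and 55.7, 65.0, 69.1 and 76.6 CPM with formate, higher in each pair, with overlapping groups. The paired change of Mrpl48 (chr7:100545751-100608301) was 0.15 (SE 0.048, edgeR adjusted p = 0.0496), just inside the threshold; the gene overlaps Rab6a on the opposite strand, and reads in that overlap are uncertain because the strand setting of the counting is not given. Mrpl38 was at 88.2, 93.6, 68.1 and 83.4 CPM in controls and 83.1, 83.3, 60.7 and 73.3 CPM with formate. It was lower in each pair, and code 10 of the controls lay below 3 formate libraries. Mrpl38 (chr11:116131817-116138868) had a paired change of -0.15 (SE 0.046, edgeR adjusted p = 0.0395), and -0.12 (adjusted p = 0.116) with library size alone as the scale. Neither call held in any fit that left out 1 code pair, where the adjusted p was 0.0516 to 0.161 for Mrpl48 and 0.0645 to 0.133 for Mrpl38. Both calls were also lost with correction for GC content (edgeR adjusted p = 0.0922 for Mrpl48 and 0.0656 for Mrpl38).

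**Figure D5:**
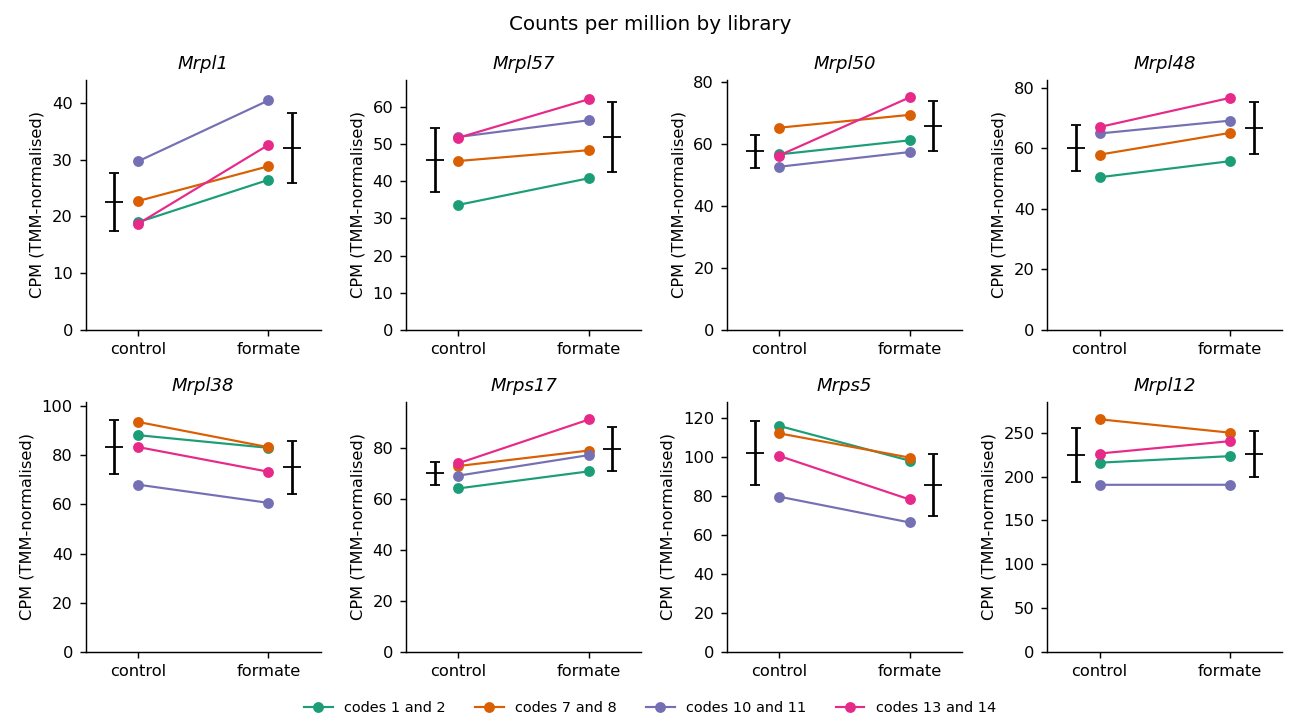
CPM of the 7 members called in the paired fit and of Mrpl12 by library, with lines between neighbouring title codes and black marks for means ± SD of 4 libraries per group. Each line of Mrpl1, Mrpl57, Mrpl50, Mrpl48 and Mrps17 runs up and each of Mrpl38 and Mrps5 runs down, while Mrpl12 runs both ways.

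Several members that did not pass had changes of similar size. Mrpl14, a large-subunit protein at the interface with the small subunit, was at 17.7, 27.3, 40.1 and 29 CPM in controls and 20.2, 27.6, 45.1 and 42.2 CPM with formate, the widest spread over libraries in the family at 2.55-fold. Its codes 1 and 2 were lowest and its groups overlapped, and the paired change was 0.23 (SE 0.077, edgeR adjusted p = 0.0568). Mrpl33 was at 61.1, 81.9, 87.3 and 76.1 CPM in controls and 74.4, 83.6, 89.8 and 107 CPM with formate (0.21, adjusted p = 0.0849). Formate code 14 stood apart above the rest for Mrpl33, and the other libraries of both groups were mixed.

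Mrps18c and Mrps33, both small-subunit proteins, had paired changes of 0.17 (adjusted p = 0.0819) and 0.14 (adjusted p = 0.0724). On the lower side were Mrps25 (-0.13, adjusted p = 0.103), Mrps15 (-0.11, adjusted p = 0.145), Mrpl39 (-0.13, adjusted p = 0.167) and Mrpl52 (-0.11, adjusted p = 0.177). Mrps25 and Mrps15 were lower in 4 of 4 pairs, as was Mrpl52, and Mrpl39 in 3 of 4. Some passed the paired test under other settings. With library size alone as the scale these were Mrpl14, Mrpl33, Mrps18c and Mrps33, and with GC offsets Mrpl14 and Mrps25. Mrps33 also passed with upper quartile scaling and without codes 10 and 11. A p that misses the threshold does not show that these genes were level.

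Read by place in the ribosome, the calls are given beside the 12.9% of all genes called in the paired fit. The 4 proteins of the L7/L12 stalk and its base (Mrpl10, Mrpl11, Mrpl12, Mrpl53) gave 0 paired calls and a median of 0.06. Mrpl12, the member with the highest mean CPM, stood at 216, 265, 191 and 226 CPM in controls and 223, 250, 191 and 240 CPM with formate. Its group means, 224 ± 31.1 and 226 ± 26.1 CPM, lay well within the spread, and its paired 95% interval ran from -0.08 to 0.11. The 7 genes of the central protuberance had 1 call higher, 1 lower (28.6% called) and a median of -0.05. The 5 around the exit tunnel had 0 calls and a median of -0.01. With so few genes per place, these counts say little about place, and no difference between places was tested.

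Of the 30 large-subunit genes with a bacterial homologue 1 was called, Mrpl1 (3.33%), and of the 19 without one 4 were, 3 higher and 1 lower (21.1%), on either side of the 12.9% over all genes; the difference between these shares was not tested. The 16 small-subunit genes with a bacterial homologue held both Mrps calls, Mrps17 higher and Mrps5 lower, and the 10 without one held 0; 2 of 16 is 12.5%, close to the share over all genes. The members placed outside the small subunit in spite of their symbols were not called: Mrps18a (0.11, adjusted p = 0.17), Mrps30 (-0.05, adjusted p = 0.575) and Mrps36 (0.02, adjusted p = 0.856).

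The ratio of summed Mrpl to summed Mrps CPM was 1.83, 1.88, 1.93 and 1.90 in control codes 1, 7, 10 and 13 and 1.87, 1.95, 1.94 and 1.95 in formate codes 2, 8, 11 and 14. The means, 1.88 ± 0.041 and 1.93 ± 0.037, differed by about the spread within a group, and the groups overlapped. The ratio was higher with formate in 4 of 4 code pairs.

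Across all 8 libraries the members were even. The highest library exceeded the lowest by more than 1.5-fold in 13 members (16.7%), against 60.0% of all genes tested and 43.3% of those within the same range of mean CPM. Mrpl14 (2.55-fold), Mrpl1 (2.17-fold), Mrpl57 (1.85-fold), Mrpl33 (1.75-fold) and Mrps5 (1.75-fold) varied most. Between the library sets, 12 members (15.4%) had all of codes 10 to 14 on 1 side of all of codes 1 to 8, against 33.9% of all genes. Higher in codes 10 to 14 were Mrpl4, Mrpl14, Mrpl57, Mrps16 and Mrps35, and lower were Mrpl9, Mrpl37, Mrpl51, Mrpl52, Mrps2, Mrps7 and Mrps31. A test of whether formate acted differently in the 2 sets called 0 members and 0 genes with edgeR (0%); 0 members and 154 genes had an unadjusted p under 0.05. In that test with the code pairs as a block 0 members and 9 genes were called, and 3 members had an unadjusted p under 0.05, beside 673 of 13299 genes.

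Some member values rest on reads that may be shared. The processed pseudogene Mrpl23-ps1 held between 81.7% and 87.8% of the counts that it and Mrpl23 had together, and the estimate of which copy a read belongs to sets both. Mrpl23 alone was at 6.57 to 10.3 CPM, and with the pseudogene at 44.9 to 61.7 CPM, so its place at the low end of the family is uncertain. In GENCODE M21, 42 members overlap another gene and 36 do so on the opposite strand. Mrpl46 and Mrps11, named after their values were seen, are arranged head to head on chromosome 7 and overlap by 413 bp; their paired changes were 0.15 (adjusted p = 0.0618) and 0.03 (adjusted p = 0.741).

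Across members, the paired change ran weakly against GC content (Spearman's rho = -0.14 over 78 genes), as it did over all genes (rho = -0.24), and against transcript length (rho = -0.26). These are descriptions over genes measured in the same libraries, and genes are not replicates.

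The other genes of mitochondrial translation were taken from 5 lists, and 0 of their genes passed the unpaired test with edgeR, where 2 assembly factors, 2 translation factors and 9 mitochondrially encoded genes had an unadjusted p under 0.05; DESeq2 without pairing called 1, CYTB. The shares called over all genes in the paired fit, 5.35% higher and 7.52% lower, are the background for each list. The lists were chosen with earlier results of these data known, so a share above that background is a description and not a test. Of the 5 accessory ribosomal proteins outside the naming rule, 2 rose in the paired fit. Ptcd3, a pentatricopeptide repeat protein of the small subunit, was at 142, 156, 130 and 150 CPM in control codes 1, 7, 10 and 13 and at 155, 179, 149 and 165 CPM in formate codes 2, 8, 11 and 14 (log2 change 0.16, edgeR adjusted p = 0.0219). Chchd1, also of the small subunit, was at 66.6, 84.0, 96.5 and 86.3 CPM in controls and 70.8, 96.7, 111 and 126 CPM with formate (0.26, adjusted p = 0.0226). Both were higher in each pair, with overlapping groups. Each passed in 1 of the 4 fits that left out a code pair; the Chchd1 change was 0.17 without codes 13 and 14, and the Ptcd3 change was 0.08 (adjusted p = 0.246) with GC offsets.

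In a list of 16 translation factors and proteins that work beside them, the paired fit called 6 lower and 1 higher and left 9 uncalled (43.8% called, beside 12.9% of all genes), with a median of -0.03. Tufm, the elongation factor that brings aminoacyl-tRNA to the mitochondrial ribosome, was at 199, 193, 141 and 161 CPM in controls and 159, 150, 111 and 123 CPM with formate. Each formate library was below its neighbour, though control code 10 lay below formate codes 2 and 8. The means were 174 ± 27.1 and 136 ± 22.5 CPM, and the paired log2 change was -0.36 (SE 0.043, edgeR adjusted p = 0.000799). Gfm1, the translocase that moves the ribosome along, changed by -0.23 (adjusted p = 0.00496), and Oxa1l, the insertase that receives the new proteins at the inner membrane, by -0.24 (adjusted p = 0.00745). Oxa1l groups did not overlap, with controls at 53.7 to 62.6 CPM and formate at 48.0 to 52.9 CPM. Of the 16 genes 2 had group ranges apart, Oxa1l and Gfm2 (12.5%, beside 4.29% of all genes). Lrpprc, which binds mitochondrial mRNAs, and the factors Gfm2 and Tsfm were also lower, and Guf1 was higher (0.14, adjusted p = 0.153, with GC offsets). Tufm passed in 4 of the 4 fits that left out a code pair and Gfm1 and Oxa1l in 3; Lrpprc and Guf1 passed in 1, and Gfm2 and Tsfm in 0.

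Of 25 assembly factors, 3 fell and 2 rose, with a median of 0.01. The GTPases Noa1 (-0.17, edgeR adjusted p = 0.0303) and Mtg1 (-0.22, adjusted p = 0.0323) and the helicase Ddx28 (-0.24, adjusted p = 0.0307) were lower in the paired fit, and Fastkd2 and Trub2 were higher. Ddx28 stood at 24.6 to 27.7 CPM in controls and 20.1 to 23.7 CPM with formate. Mtg1 stood at 21.9 to 25.1 and 18.2 to 21.3 CPM, so neither overlapped. Mterf3, not called, was apart in the other direction, at 20.8 to 24.5 CPM in controls and 24.9 to 27.7 CPM with formate. These were 3 of the 25 factors (12%), beside 4.29% of all genes. Of the 5 called factors Noa1 passed in 1 of the 4 fits that left out a code pair and the others in 0 (adjusted p of Ddx28 0.0628 to 0.121, of Mtg1 0.0918 to 0.106). The Fastkd2 change was 0.06 with GC offsets. Among 14 genes of mitochondrial DNA expression, Tefm, a transcription elongation factor, was higher (0.27, adjusted p = 0.0287) and Elac2, which trims tRNA ends, lower (-0.18, adjusted p = 0.026); each passed in 1 of those 4 fits.

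The transcripts that this ribosome translates differed more between groups than those of its proteins, and whether they passed the test depended on the tool. The 13 mitochondrially encoded protein genes summed to 4391, 4228, 4390 and 5684 CPM in control codes 1, 7, 10 and 13 and to 6107, 5619, 8826 and 7164 CPM in formate codes 2, 8, 11 and 14. Formate code 8 lay just below control code 13, and each formate library was above its neighbour. With edgeR 0 of the 13 genes were called in either fit, and 9 unpaired and 7 paired had an unadjusted p under 0.05; the paired median was 0.57, and 7 (53.8%) had group ranges apart, beside 4.29% of all genes. COX1, the core catalytic subunit of complex IV, had a paired change of 0.57 (adjusted p = 0.0629), and CYTB, the complex III cytochrome, 0.61 (adjusted p = 0.0953). DESeq2 called 1 of them without pairing, CYTB (adjusted p = 0.0327), and 9 with the block, all higher, among them CYTB (adjusted p = 0.00926) and COX1 (adjusted p = 0.045). Per summed CPM of the 78 members, these transcripts stood at 0.887 ± 0.134 in controls and 1.30 ± 0.323 with formate. That ratio overlapped between groups, with formate code 8 (1.01) below control code 13 (1.07), and formate code 11 was highest (1.76). Not all 13 genes were higher, as ND3 had a paired change of -0.03 (edgeR adjusted p = 0.839).

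The 83 cytosolic ribosomal protein genes, which build the other ribosome of the cell, had 12 paired calls higher and 1 lower (15.7%) and a median of 0.06, beside 0.02 for Mrpl and 0.01 for Mrps. Whether the families differ was not tested. Many cytosolic members have processed pseudogenes, so their counts are uncertain to that extent.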

How the data were processed

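Per the labels' protocols, stranded libraries of polyadenylated RNA from 8 CD8 T cell samples were sequenced; the submitters' processing notes name kallisto, Trimmomatic and MultiQC, and as builds mm10 and GRCm38. The release of the transcriptome, filters and the strand setting: not given in the sources used here. As deposited by the authors, the values are expected counts per gene (estimated counts), not normalised. Among values above 0, 56.7% were fractional (tolerance 1e-06), and each was rounded before testing. The 8884 genes without a symbol held 1.22% to 1.65% of the counts and stayed in the fits. In the smallest library 3 counts equal 0.102 CPM.

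Groups follow the treatment label. No pair of libraries of a group agreed within sampling noise (smallest chi-square per degree of freedom 22.2). The test was edgeR's robust quasi-likelihood test (edgeR 4.0.16, limma 3.58.1, R 4.3.3; TMM scaling, filterByExpr, Benjamini-Hochberg adjustment over 13299 genes, threshold 0.05); CPM values are TMM-normalised. The script was tested on simulated data. The planned fit has no pairing. Neighbouring title codes were used as a replicate block because deviations from the group means correlated by 0.653, 0.369, 0.656 and 0.370 in the 4 pairs; non-neighbours of the same library set reached 0.270 to 0.373, so the pairing comes from the codes and not from a stated design. Alternatives were DESeq2 1.42.0, other scalings, no filter, a set term, GC offsets (13200 genes with GC content), left-out libraries or pairs, fits within sets, and pseudogene counts added; the last of these joined with the block was chosen after seeing the data.

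GENCODE M21 gave coordinates, length and GC content (34630 identifiers matched, all 78 members among them). Library values are given for members past either fit, the 3 highest and 2 lowest per subunit by level per kilobase, the 3 largest changes per direction and subunit, and up to 3 called genes per pathway list, with the less telling ones as ranges or changes only. The members and lists were chosen with earlier results of these data known.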

Additional observations from a re-analysis of the deposited data

Results flagged for a closer look

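In 70 groups of 4 libraries, 1 library was looked for that lay apart from the other 3 (a gap to its nearest neighbour over the group's range above Dixon's 95% criterion, which chance passes in about 1 of 20 groups); 4 did. Mrpl39 was at 58 CPM in control code 7, above the other controls (gap over range 0.908). Mrps15 was at 62.6 CPM in formate code 11, below the other formate libraries (0.871). The ratio of Mrpl to Mrps CPM was 1.871 in formate code 2, below the others of its group (0.891). The mitochondrially encoded protein genes summed to 5684 CPM in control code 13, above the other controls (0.888).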

How the results depend on the processing

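Without pairing, 0 members and, with edgeR, 0 pathway genes were called under each alternative run; DESeq2 called 1 pathway gene. The replicate block gave 7 members and 16 pathway genes, and the same 7 and 16 with pseudogene counts added. With the block, DESeq2 called 4 members and 20 pathway genes, library size alone 13 and 11, the upper quartile 8 and 14, and GC offsets 6 and 12. Over all 13299 genes these fits called 1538, 1587, 1568 and 1736 in the same order, beside 1711 with the replicate block and TMM scaling. Leaving out 1 code pair gave 2 to 6 members and 3 to 18 pathway genes. It was 2 members and 3, 5 and 3 pathway genes without codes 1 and 2, 7 and 8, or 13 and 14. Without 10 and 11 it was 6 and 18. Over all genes these fits called 337 of 13228, 722 of 13500, 502 of 13149 and 1371 of 13312 in the same order. The background thus moved as well. Fewer samples were fitted there. Otherwise the cause was not tested. The Mrpl median ran from -0.0268 (without formate code 14) to 0.0728 (without control code 7), and the Mrps median from -0.0439 to 0.0547. These ranges were about as wide as the SD of the library medians within a group, 0.0951 for Mrpl and 0.0991 for Mrps. Fits within codes 1 to 8 and within 10 to 14 called 0 members, and each compares 2 libraries with 2. Of 21 named members 17 had 1 direction in all 27 alternatives. Mrpl12, Mrpl23, Mrps18b and Mrps26, none of them called, changed sign in 6, 4, 1 and 9. These members were named for their level per kilobase alone. Most of the others were named because they were called or changed most in these libraries. A steady direction was thus partly fixed by that choice, and the alternatives reuse the same libraries. The part of counting error in the spread was not tested, and it is largest for members with few counts, such as Mrpl23 (198 in its lowest library). The small number of libraries also limits the precision.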
